A study of Homo sapiens with 4 samples.

Results

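The untreated libraries of 2 established human ovarian cancer cell lines, SKOV3 and ES2, were compared to describe how the lines differ before any compound is added. The groups used are SKOV3 control and ES2 control, both grown without drug, and, as the only further libraries of the same lines, SKOV3 YY-15 and ES2 YY-15. Both lines shared the same culture, 5A medium with 10% fetal bovine serum and antibiotics, and YY-15, a compound known here by its code name only, was given for 48 h at 4 µM according to the column headings. Each group held 1 library of poly(A)-selected RNA, so no difference was tested, no p-value exists and the spread between cultures is unknown. The comparison covers autosomal genes with a level of at least 1 FPKM (read fragments per kilobase of transcript and per library size) in either control library, which were 13512 of the 38558 genes in the deposited table, 37095 of them autosomal.

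SKOV3 is widely used as a model of ERBB2 amplification. ES2 was catalogued as a clear cell carcinoma and is known for an activating BRAF mutation. ERBB2 and BRAF both feed the ERK kinase cascade, whose output includes feedback phosphatases and AP-1 transcription factors. Epithelial ovarian tumours usually carry simple keratins and the Müllerian lineage factor PAX8.

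Estimated counts summed to 67431058 (control) and 62522202 (YY-15) in SKOV3, against 63900880 (control) and 66684550 (YY-15) in ES2. Differences are given as log2((SKOV3 control FPKM + 1)/(ES2 control FPKM + 1)), called the log2 ratio, which understates the difference of genes with low FPKM. A gene was counted as higher or lower at a size of 4-fold, which is 2 or more on the log2 scale in either direction. Brackets hold the exact 95% interval (Clopper-Pearson) of the ratio of count shares on the log2 scale, without a pseudocount. They cover counting error only, since reads copied by PCR without molecular identifiers are not independent molecules. Where values of all 4 libraries are given, the control library of a line comes before its YY-15 library.

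Most genes were expressed in both lines, and a minority set them apart. Of the 13512 genes, 10242 had an FPKM of 1 or more in both controls, 1922 in SKOV3 control only and 1348 in ES2 control only. At 4-fold, 652 genes (4.83%) were higher in SKOV3 control and 432 genes (3.2%) were lower, together 1084 genes (8.02%). The counts of gene lists below are to be read beside these shares. Of 43 lists with 5 or more genes past the filter, 38 had a larger share past 4-fold than all genes. A share above that of all genes thus does not set a list apart. The median log2 ratio over all genes was 0.07. Many differences ran from detection to none: 229 of the higher genes had a count of 0 in ES2 control, and 76 of the lower genes had a count of 0 in SKOV3 control. Across genes, which are not independent replicates, Pearson's r of log2(FPKM + 1) was 0.731 between the controls, against 0.966 between both SKOV3 libraries and 0.990 between both ES2 libraries. Of the same genes, 32 differed by 4-fold between the YY-15 and control libraries of SKOV3, and 8 did between those of ES2.

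**Figure D1:**
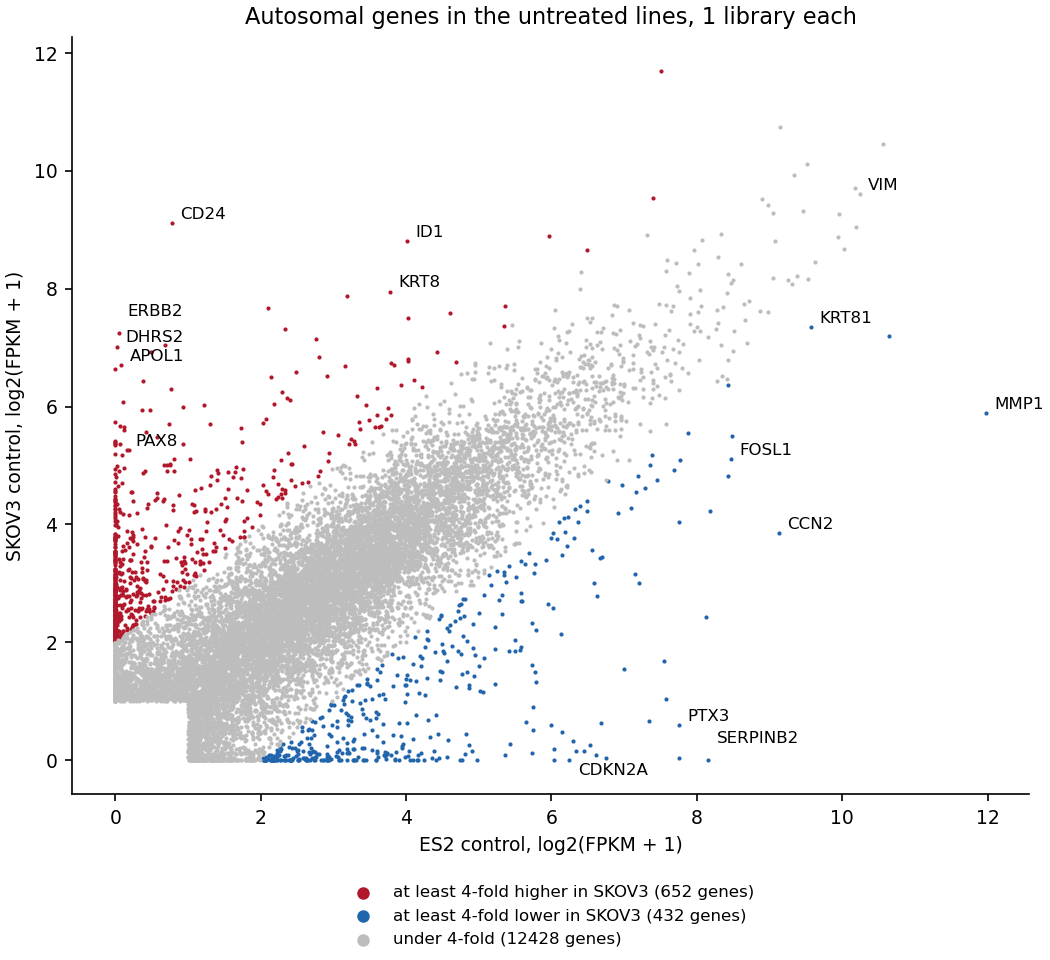
Each point is an autosomal gene past the filter, with log2(FPKM + 1) in ES2 control on the x axis and in SKOV3 control on the y axis. Red marks the 652 genes at least 4-fold higher in SKOV3 control and blue the 432 at least 4-fold lower; CD24 and ERBB2 lie at the upper left, and SERPINB2 and CDKN2A lie on the x axis.

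The YY-15 libraries repeated most of these differences. Of the 652 higher genes, 549 (84.2%) were also at least 4-fold higher in SKOV3 YY-15 than in ES2 YY-15, where 5.52% of genes were higher, and of the 432 lower genes 314 (72.7%) were at least 4-fold lower, where 2.69% of genes were lower and 8.21% were past 4-fold in either direction. Both SKOV3 libraries lay above both ES2 libraries for 651 of the higher genes, and below both for 430 of the lower genes. Over all genes past the filter, 44.4% and 36.2% were separated in these directions. The YY-15 pair is not a replicate of the controls, because those libraries carry the compound in both lines. Only 3 genes did not keep their sign, namely the pseudogene GTF2IP1 and 2 genes without a symbol. GTF2IP1 was at 6.08 and 0.439 FPKM in SKOV3, against 0.186 and 3.76 FPKM in ES2, and it is one of several near-identical copies.

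**Figure D2:**
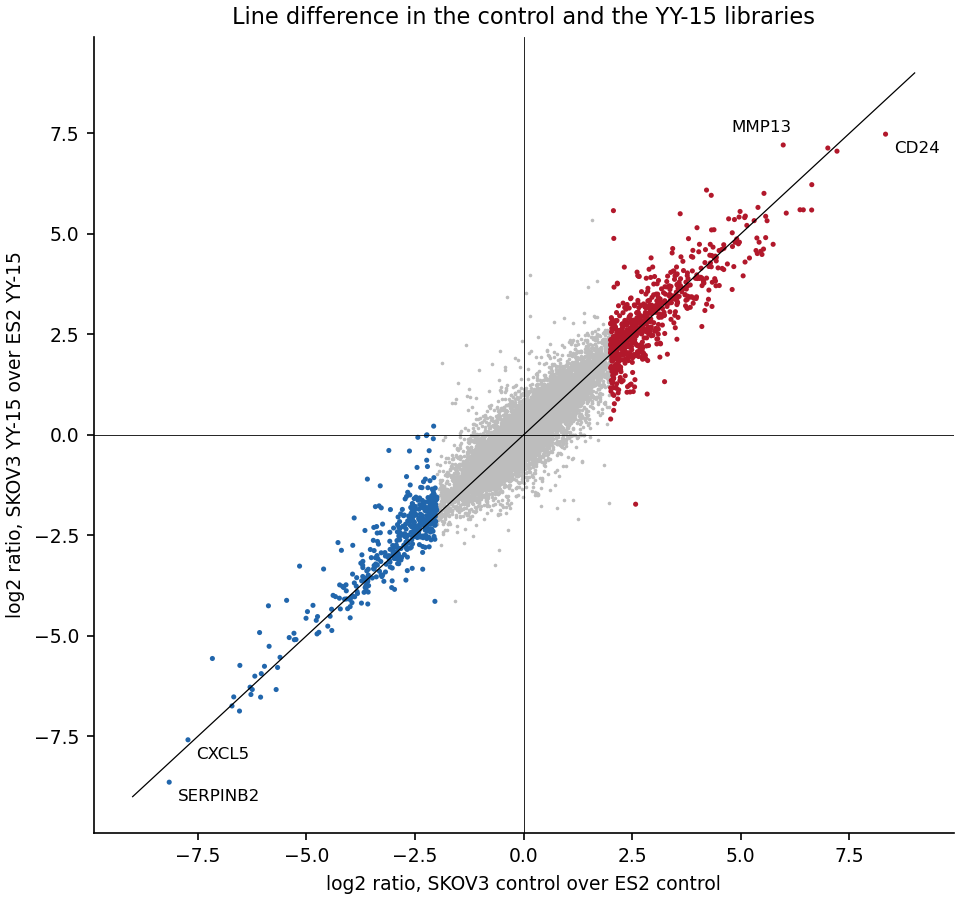
Each point is a gene, with the log2 ratio of SKOV3 control over ES2 control on the x axis and of SKOV3 YY-15 over ES2 YY-15 on the y axis; the diagonal marks equal ratios. Red and blue points, 652 and 432 genes, are at least 4-fold higher or lower in SKOV3 control, and all but 3 of them keep their sign in the YY-15 pair.

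The labels call both lines epithelial, and keratin messages were present in both, while junction genes were largely a feature of SKOV3. KRT7, a simple epithelial keratin, was at 153 and 124 FPKM in SKOV3, against 101 and 117 FPKM in ES2. KRT18, the partner filament of KRT8, was at 104 and 97.7 FPKM in SKOV3, against 112 and 102 FPKM in ES2. These keratins were thus at like levels in the 4 libraries. KRT8 was at 247 and 116 FPKM in SKOV3, against 12.7 and 12.7 FPKM in ES2, a log2 ratio of 4.17. KRT19 was at 20.5 and 12.5 FPKM in SKOV3, against 0 and 0.0363 FPKM in ES2, and its count of 0 in ES2 control makes it at least 1081-fold higher in SKOV3 control. Of 7 genes of the simple keratin list past the filter, 3 were higher in SKOV3 control (KRT8, KRT19 and KRT80). In that list 1 was lower, KRT81, a hair keratin, at 162 FPKM in SKOV3 control and 763 FPKM in ES2 control. The median log2 ratio of the list was 0.60. Keratins outside it were not counted, among them KRT5 and KRT10, with log2 ratios of 2.52 and 0.42.

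Genes of epithelial adhesion and splicing stood higher in SKOV3 control. Of 21 members past the filter, 10 were at least 4-fold higher and none was lower, with a median log2 ratio of 1.91. With genes of count 0 set to their bound, the median was 3.77. Here and in the lists below, such a bound is a ratio of count shares without a pseudocount. The other members keep the pseudocount, so a median with bounds mixes both scales and is not directly comparable to the plain median. The desmosomal plaque gene DSP was at 20.6 and 19 FPKM in SKOV3 and had an FPKM of 0 in both ES2 libraries, which is at least 9218-fold between the controls. JUP, plakoglobin, was at 25.3 and 40.4 FPKM in SKOV3 and had an FPKM of 0 in both ES2 libraries. SPINT2, an inhibitor of serine proteases at epithelial surfaces, was at 37.5 FPKM in SKOV3 control and 0.134 FPKM in ES2 control. None of these 3 genes reached 1 FPKM in an ES2 library. CLDN1, a tight junction claudin, was at 29.1 and 146 FPKM in SKOV3, against 0.628 and 1.17 FPKM in ES2. ELF3, an epithelial transcription factor, was at 13.3 FPKM in SKOV3 control and had a count of 0 in ES2 control. The defining junction markers were low in both lines: CDH1, E-cadherin, was at 0.207 FPKM in SKOV3 control but 0 in ES2 control, and EPCAM was at 0.752 FPKM in SKOV3 control but 0 in ES2 control, both under the filter. Another 21 members were under the filter, so the count of 10 does not speak for the whole list.

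**Figure D3:**
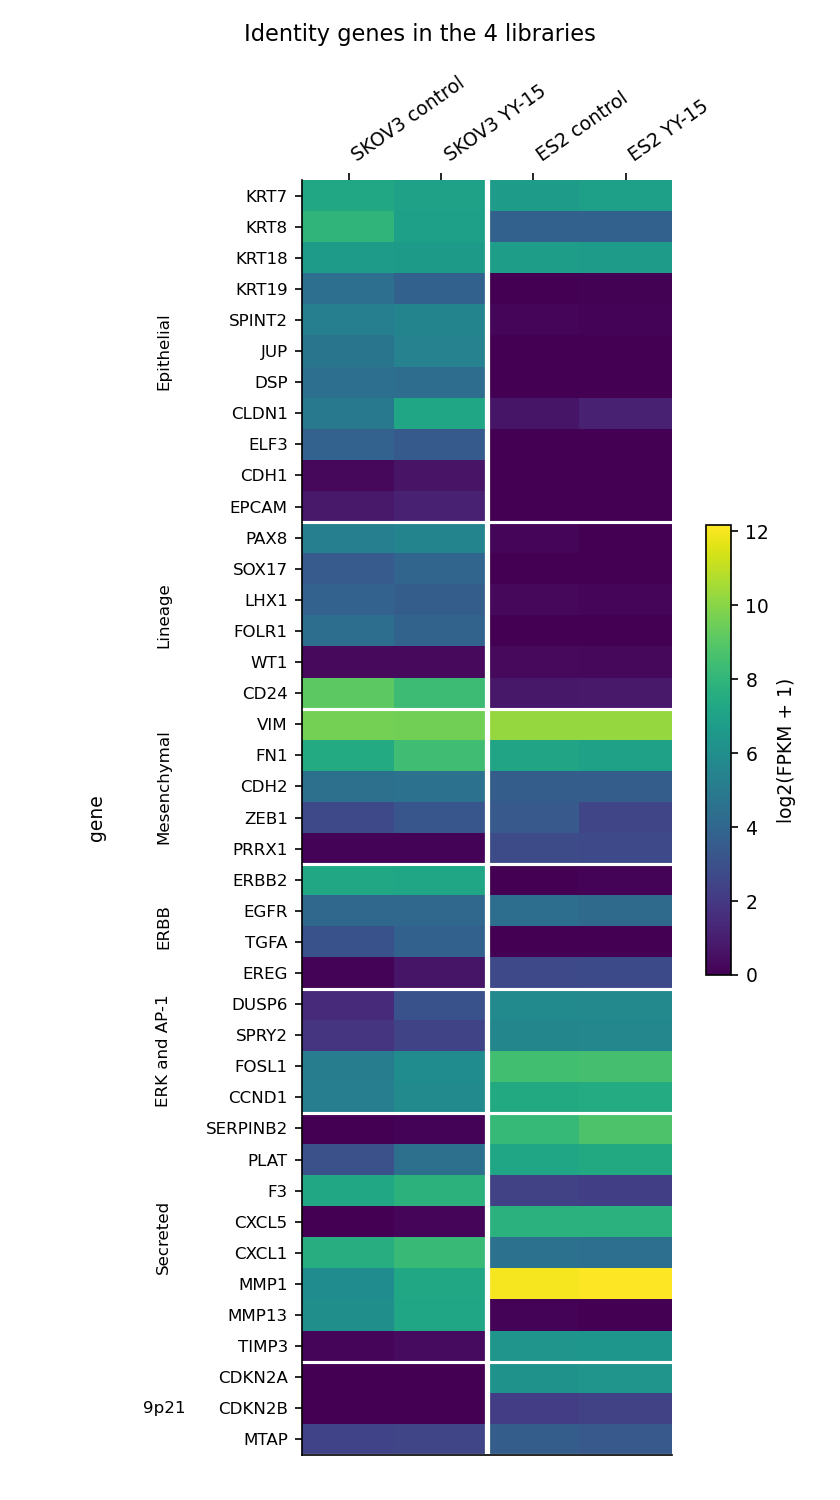
Colour gives log2(FPKM + 1) for 41 genes (rows, grouped by role) in the 4 libraries (columns). Rows such as DSP, PAX8 and ERBB2 are bright in both SKOV3 libraries and dark in both ES2 libraries, SERPINB2, CXCL5 and CDKN2A show the opposite, and VIM, KRT7 and KRT18 are bright in all 4.

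Mesenchymal genes were strong in both lines. VIM, vimentin, was at 782 and 754 FPKM in SKOV3, against 1208 and 1197 FPKM in ES2. FN1, fibronectin, was at 170 FPKM in SKOV3 control and 138 FPKM in ES2 control, and CDH2, N-cadherin, was at 21.3 FPKM in SKOV3 control and 10.8 FPKM in ES2 control. Of 30 mesenchymal members past the filter, 6 (20%) were higher in SKOV3 control and 3 (10%) were lower, with a median log2 ratio of 0.13. The exceptions lay on both sides. TPM2, a tropomyosin, was at 68 FPKM in SKOV3 control and 4.30 FPKM in ES2 control. NT5E, the ecto-nucleotidase CD73, was at 9.92 FPKM in SKOV3 control and 103 FPKM in ES2 control, and LOX, which cross-links collagen, was at 10.8 FPKM in SKOV3 control and 93.1 FPKM in ES2 control. PRRX1, a mesenchymal homeobox gene, was at 0.0730 FPKM in SKOV3 control and 5.96 FPKM in ES2 control. The list thus did not lean to one line.

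Some cadherins differed between the lines. Of 20 cadherins and protocadherins past the filter, 5 (25%) were higher in SKOV3 control and 2 (10%) were lower. DSG2, a desmosomal cadherin, was at 17.2 and 18.0 FPKM in SKOV3, against 0.0712 and 0.0765 FPKM in ES2. CDH6, a kidney and ovarian carcinoma cadherin, was at 22.3 and 13.8 FPKM in SKOV3, against 0.485 and 0.414 FPKM in ES2. CDH5, the endothelial VE-cadherin, was at 0.0184 and 0.0651 FPKM in SKOV3, against 19.5 and 16.3 FPKM in ES2, a log2 ratio of -4.33 [-11.24 to -9.05].

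Markers of other cell types were checked for the same libraries. Endothelial markers were 0 higher and 2 lower among 4 past the filter, of 11 in the list. The lower ones were CDH5 and TIE1, and ESAM and PLVAP had log2 ratios of -1.85 and 1.14. TIE1, an endothelial receptor kinase, was at 0.0867 and 0.112 FPKM in SKOV3, against 52.0 and 50.6 FPKM in ES2. The defining endothelial genes PECAM1 and VWF were under 0.1 FPKM in all 4 libraries, so the 2 endothelial genes CDH5 and TIE1 stood high in ES2 without them. The summed FPKM of the endothelial list was 1.91 in SKOV3 control and 74.7 in ES2 control. Of 10 measured blood markers only CD68 passed the filter, at 8.11 FPKM in SKOV3 control and 29.1 FPKM in ES2 control, and the leukocyte gene PTPRC was at 0 in SKOV3 control and 0.00334 FPKM in ES2 control. Fibroblast markers split 1 higher and 1 lower among 7 past the filter, and the fibroblast proteoglycan DCN was at 0.0432 FPKM in SKOV3 control but 0 in ES2 control. Neural markers were 0 higher and 2 lower among 6, led by UCHL1, and SOX10 and GFAP were at or under 0.15 FPKM in all 4 libraries. Mesothelial markers were 2 higher and 1 lower among 4, with LRRN4 at 17.5 FPKM in SKOV3 control but 0 in ES2 control, BNC1 at 0.357 FPKM in SKOV3 control and 27.4 FPKM in ES2 control, and CALB2 at 0.160 FPKM in SKOV3 control but 0 in ES2 control. In RNA from a whole culture, fewer cells of a type and less RNA per cell cannot be told apart.

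Lineage genes of the Müllerian tract were largely a feature of SKOV3. PAX8 (chr2:113215997-113278921), the Müllerian lineage factor, was at 37.4 and 43.7 FPKM in SKOV3, against 0.119 and 0.0305 FPKM in ES2, a log2 ratio of 5.10 [7.90 to 8.65]. Both SKOV3 libraries were high and both ES2 libraries near 0. SOX17, a factor expressed with PAX8 in the fallopian tube, was at 10.2 and 14.5 FPKM in SKOV3 and 0 in both ES2 libraries. FOLR1, the folate receptor of ovarian carcinoma, was at 20.1 and 13.8 FPKM in SKOV3 and 0 in both ES2 libraries. SLPI, a secreted protease inhibitor, was at 14.9 and 34.5 FPKM in SKOV3 and 0 in both ES2 libraries. These 3 genes were detected in the SKOV3 libraries alone. The opposite held for LGR5, a stem cell receptor, at 0 in both SKOV3 libraries and at 3.82 and 2.70 FPKM in ES2. Of 13 ovarian lineage and surface genes past the filter, 5 were higher in SKOV3 control and 1 was lower, with a median log2 ratio of 1.04 (1.17 with genes of count 0 at their bound). The surface antigens MUC16 (CA-125) and MSLN and the serous marker WT1 were under the filter.

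Some markers of clear cell carcinoma bear on the catalogue entry of ES2. ANXA4, an annexin reported in clear cell tumours, was at 29.4 FPKM in SKOV3 control and 1.63 FPKM in ES2 control. NAPSA, napsin A, was under 0.1 FPKM in both controls. SPP1, osteopontin, was at 4.29 FPKM in SKOV3 control and 0.640 FPKM in ES2 control, a log2 ratio of 1.69. ANXA4 was past 4-fold and SPP1 was not.

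Among protein-coding genes with at least 5 FPKM and no overlap with another gene on the same strand, which leaves out ERBB2 and S100A4, the 15 largest positive ratios were led by CD24, and several encode surface or secreted proteins. CD24, a lipid-anchored surface mucin, was at 551 and 320 FPKM in SKOV3, against 0.717 and 0.798 FPKM in ES2, a log2 ratio of 8.33 [9.34 to 9.81]. DHRS2, a short-chain dehydrogenase, was at 129 and 140 FPKM in SKOV3, against 0.0118 and 0.00753 FPKM in ES2. The tumour necrosis factor family ligands CD70 and TNFSF9 were at 202 and 60.3 FPKM in SKOV3 control, against 3.27 and 0.393 FPKM in ES2 control. Both lie on the short arm of chromosome 19, within 1 Mb of each other. COL7A1, the anchoring fibril collagen, was at 49.3 FPKM in SKOV3 control and 0.0877 FPKM in ES2 control. NNMT, nicotinamide N-methyltransferase, was at 85.1 FPKM in SKOV3 control and 0.304 FPKM in ES2 control. All of these except CD70 were under 1 FPKM in ES2 control. APOL1, RRAD, MMP13, C1QL1, TUBA4A, DAPK1, CYP1B1, BST2 and PAX8 complete the 15, with log2 ratios between 6.63 for APOL1 and 5.10 for PAX8.

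DAPK1 (chr9:87497228-87708633), a calmodulin-regulated kinase that promotes cell death, had a count of 25641 in SKOV3 control and 0 in ES2 control. It was at 40.3 and 28.7 FPKM in SKOV3 and 0 in both ES2 libraries, which is at least 8100-fold between the controls. Its promoter is dense in CpG pairs, the sites that DNA methylation modifies, and is shown here for comparison with that of SERPINB2, the gene with the lowest ratio. Methylation was not measured in these samples. The 300 bases around the RefSeq start (GRCh38.p14, chr9:87497617-87497916, plus strand, 250 bases before the start and 50 after) carry 37 CG pairs, in capitals, with a GC content of 75.3%.
DAPK1: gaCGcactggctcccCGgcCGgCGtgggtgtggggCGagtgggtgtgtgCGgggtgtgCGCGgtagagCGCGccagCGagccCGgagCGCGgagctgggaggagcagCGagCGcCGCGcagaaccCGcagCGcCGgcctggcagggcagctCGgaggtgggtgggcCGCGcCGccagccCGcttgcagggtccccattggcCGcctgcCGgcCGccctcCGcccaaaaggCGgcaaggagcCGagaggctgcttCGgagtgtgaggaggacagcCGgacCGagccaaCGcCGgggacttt

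SERPINB2 (chr18:63871692-63903879), plasminogen activator inhibitor 2, had the lowest log2 ratio, -8.16. It was at 0 and 0.0812 FPKM in SKOV3, against 285 and 430 FPKM in ES2, and with counts of 0 and 52803 in SKOV3 control and ES2 control it was at least 18573-fold lower in SKOV3 control. CXCL5, a neutrophil chemokine, was at 0.0230 and 0.151 FPKM in SKOV3, against 216 and 220 FPKM in ES2, a log2 ratio of -7.73 [-14.50 to -11.65]. For both genes the lines do not overlap in any library. The SERPINB2 promoter (GRCh38.p14, chr18:63887455-63887754, plus strand) holds 1 CG pair and 1 match to the AP-1 core, searched as TGANTCA with any base at N. The match is in capitals, and its first base lies 102 bases before the start.
SERPINB2: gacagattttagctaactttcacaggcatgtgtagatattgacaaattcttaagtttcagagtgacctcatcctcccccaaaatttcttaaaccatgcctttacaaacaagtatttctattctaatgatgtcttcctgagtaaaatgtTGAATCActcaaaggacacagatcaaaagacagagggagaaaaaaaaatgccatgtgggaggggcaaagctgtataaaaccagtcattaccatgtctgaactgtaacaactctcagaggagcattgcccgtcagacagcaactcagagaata

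The other genes among the 15 lowest ratios, taken under the same limits, belong to several classes. PTX3, a soluble pattern recognition protein, was at 0.509 and 3.33 FPKM in SKOV3, against 215 and 204 FPKM in ES2. FLNC, the muscle filamin, was at 0.0216 and 0.0125 FPKM in SKOV3, against 106 and 108 FPKM in ES2. UCHL1, a deubiquitinase of neurons, was at 1.06 and 1.06 FPKM in SKOV3, against 191 and 240 FPKM in ES2. FLNC and UCHL1 thus moved little with YY-15 in either line. ESM1, the proteoglycan endocan, was at 0.0564 FPKM in SKOV3 control and 96.8 FPKM in ES2 control. FKBP10, a chaperone of collagen, was at 0.110 FPKM in SKOV3 control and 86.3 FPKM in ES2 control. MT1E, a metallothionein, was at 0 in both SKOV3 libraries and at 64.8 and 60.4 FPKM in ES2, although metallothionein genes are near-identical and share reads. KRTAP2-3, UQCRH, CDKN2A, TIMP3, MMP1, ARHGDIB and TRIM55 complete the 15, with log2 ratios between -6.67 for KRTAP2-3 and -5.97 for TRIM55.

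The 17q12 segment around ERBB2 stood out as a block. ERBB2 (chr17:39687914-39730426) was at 152 and 143 FPKM in SKOV3, against 0.0317 and 0.0824 FPKM in ES2, a log2 ratio of 7.21 [11.54 to 12.75]. Its span overlaps the microRNA gene MIR4728 on the same strand, which was listed at 2.43 FPKM in SKOV3 control. PGAP3, a GPI-anchor remodelling enzyme, was at 31.7 and 36.4 FPKM in SKOV3, against 0.677 and 0.691 FPKM in ES2. MIEN1, a membrane-anchored migration factor, was at 95.5 FPKM in SKOV3 control and 4.61 FPKM in ES2 control. These neighbours stood lower in level than ERBB2 but shared its direction. STARD3, a lysosomal sterol transporter, was at 44.7 FPKM in SKOV3 control and 7.39 FPKM in ES2 control. PPP1R1B and GRB7, an ERBB2 adaptor, were at 8.24 and 3.39 FPKM in SKOV3 control and had counts of 0 in ES2 control. Of 17 genes of the HER2 amplicon list past the filter, 6 (35.3%) were higher in SKOV3 control and none was lower, with a median log2 ratio of 1.42.

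Most genes of this neighbourhood that were at least 4-fold higher lay close to ERBB2. Among genes that start between 70 kb before and 55 kb after the start of ERBB2, 6 of 8 were at least 4-fold higher, with a median log2 ratio of 2.83. ERBB2 itself is among the 8. The edges of this stretch and of those below were drawn around the values seen, so their counts describe the block and do not test its extent. The flanks had medians of 0.83 on the lower side, down to 1500 kb, and 0.71 on the upper side, up to 1100 kb, and most of their genes lay above 0, 18 of 21 and 19 of 21. At 4-fold 1 gene was higher in each flank, and 1, IGFBP4, was lower in the upper flank, with a log2 ratio of -2.42. CDK12, a transcription kinase in the lower flank, had a log2 ratio of 0.55. LASP1, an actin-binding protein, was at 137 FPKM in SKOV3 control and 45.8 FPKM in ES2 control. From 1100 to 1500 kb, 6 of 11 genes were lower, with a median of -2.52. That stretch holds the keratin-associated genes with KRTAP2-3, at 0.585 FPKM in SKOV3 control and 161 FPKM in ES2 control, and these are near-identical copies whose reads can be split by the counting. DNA copy number was not measured here.

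**Figure D4:**
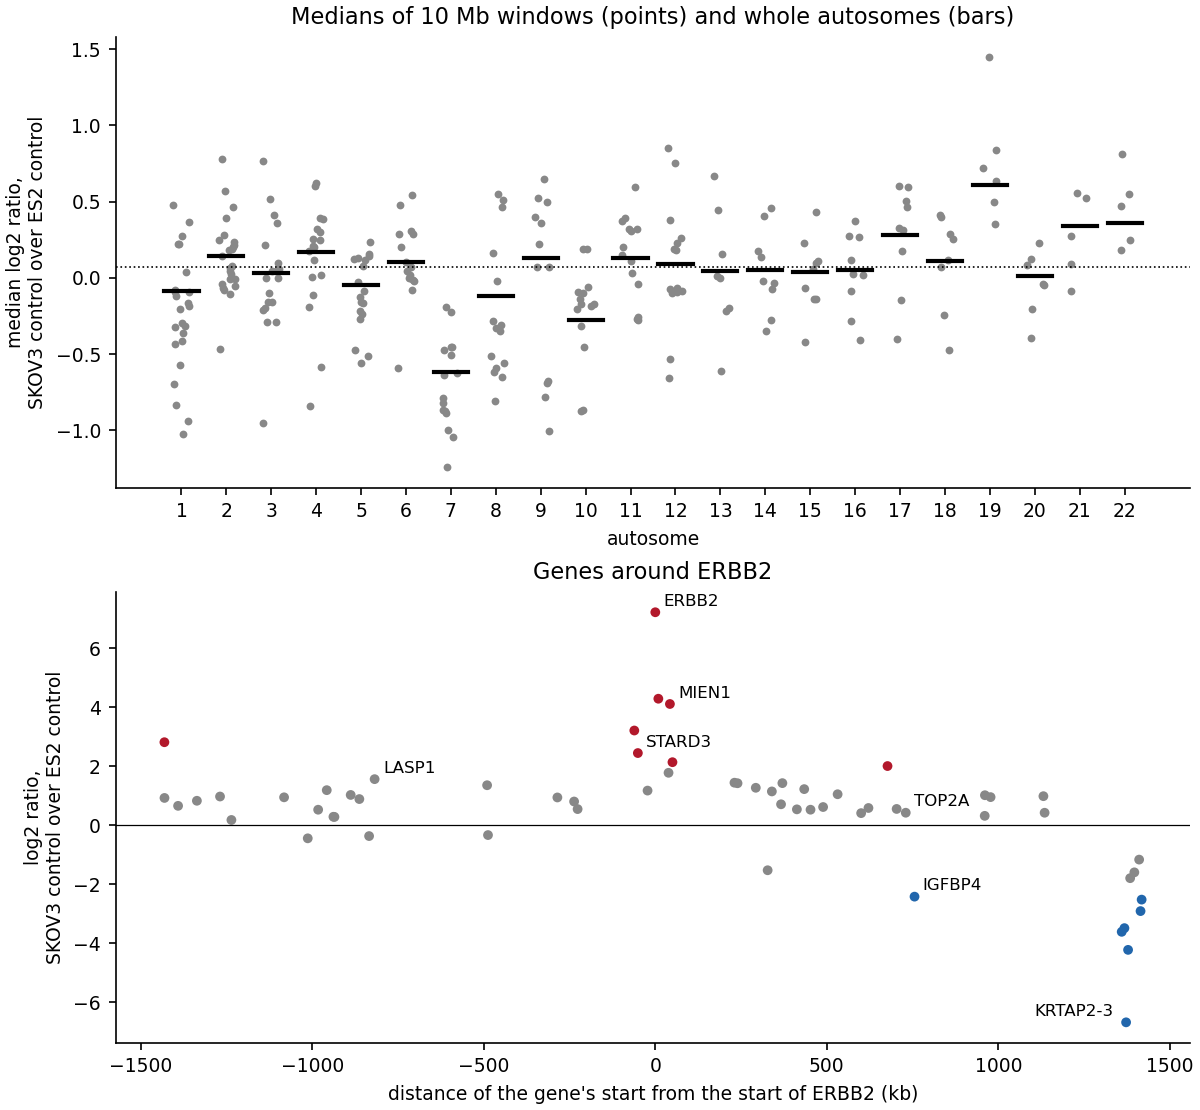
The upper panel gives, for each autosome on the x axis, the median log2 ratio of every 10 Mb window with at least 10 genes (grey points) and of the whole autosome (black bars), with the median of all genes dotted. The lower panel gives the log2 ratio of each gene against the distance of its start from the start of ERBB2 in kb; the red points near 0 are the block of higher genes, and the blue points at the right are the lower keratin-associated genes.

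Among other ERBB genes, EGFR was at a like level in both lines while the ligands TGFA and EREG differed. EGFR was at 15.7 and 15.5 FPKM in SKOV3, against 19.8 and 17.4 FPKM in ES2. TGFA, a ligand of EGFR, was at 7.41 and 12.5 FPKM in SKOV3 and 0 in both ES2 libraries. EREG, epiregulin, was at 0.0692 and 0.616 FPKM in SKOV3, against 5.41 and 5.71 FPKM in ES2. HBEGF, another EGFR ligand, was present in both lines, at 6.86 FPKM in SKOV3 control and 24.5 FPKM in ES2 control. Of 8 ERBB receptors and ligands past the filter, 2 were higher in SKOV3 control and 2 were lower.

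Of 20 listed receptor tyrosine kinases outside the ERBB family and past the filter, 4 were higher in SKOV3 control and 2 were lower. PTK7, a Wnt co-receptor without kinase activity, was at 41.2 and 45.5 FPKM in SKOV3, against 2.33 and 2.73 FPKM in ES2. FGFR4 was at 6.38 FPKM in SKOV3 control and 0.256 FPKM in ES2 control, and FGFR3 was at 5.17 FPKM in SKOV3 control and 0.0792 FPKM in ES2 control. The lower members of the list were DDR2 and PDGFRA, and TIE1, described above, is not in it. DDR2, a collagen receptor, was at 0.542 FPKM in SKOV3 control and 15.1 FPKM in ES2 control, and PDGFRA was at 0.0956 FPKM in SKOV3 control and 5.55 FPKM in ES2 control.

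Genes of ERK feedback were lower in SKOV3 control as a group. Of 19 members, all past the filter, 8 (42.1%) were at least 4-fold lower, none was higher, 18 lay below 0 and the median log2 ratio was -1.84. DUSP6, the phosphatase that inactivates ERK, was at 1.83 and 7.28 FPKM in SKOV3, against 53.7 and 52.1 FPKM in ES2. SPRY2, a sprouty inhibitor of the cascade, was at 2.65 and 4.54 FPKM in SKOV3, against 46.4 and 48.1 FPKM in ES2. FOSL1, an AP-1 subunit, was at 33.5 and 59.4 FPKM in SKOV3, against 354 and 379 FPKM in ES2. In each of these genes both SKOV3 libraries lay below both ES2 libraries. CCND1, cyclin D1, was at 35.4 and 54.8 FPKM in SKOV3, against 166 and 176 FPKM in ES2. DUSP5, SPRY4, ETV1 and ETV5 were the other 4 lower genes, with log2 ratios of -3.41, -3.28, -3.08 and -2.23. IER3, an immediate early gene, went the other way at 199 FPKM in SKOV3 control and 65.2 FPKM in ES2 control, a log2 ratio of 1.60. In the YY-15 pair the median of the list was -1.0, and 4 of the 8 lower genes were no longer past 4-fold there: SPRY4, DUSP5, CCND1 and ETV5, with log2 ratios of -1.82, -1.79, -1.66 and -0.63.

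Promoters of the genes lower in SKOV3 control held the AP-1 core more often than those of other genes. The core was searched as TGANTCA, where N is any base, in the 300-base RefSeq promoters of 9683 matched genes. This pattern reads the same on both strands. Matches thus include TGAATCA and TGATTCA beside TGACTCA and TGAGTCA, and the forms were not counted apart. It was found in 30 of 265 promoters of genes at least 4-fold lower (11.3%), in 17 of 436 of genes at least 4-fold higher (3.9%) and in 423 of all 9683 (4.37%). No test was made of this difference, and a match is not a binding site. The median GC content was 61.7% in lower, 67.7% in higher and 65.7% in all promoters, and the shares were not adjusted for it. The TEAD core GGAATG, searched on both strands, was in 14% of lower, 10.3% of higher and 10.5% of all promoters. Promoters poor in CpG, with an observed over expected ratio under 0.4, made up 24.2% of lower, 19.7% of higher and 8.35% of all promoters, so genes that differed in either direction more often had such promoters. The box TATAAA on the gene's own strand was in 9.06% of lower, 6.88% of higher and 3.58% of all promoters. The 27 bases around the core are shown for 5 lower genes described here, in the direction of each gene and with the core in capitals.
ARHGDIB (chr12:14951251-14951277, minus strand): cggttcgtcaTGAGTCAtctttgaggc
ANKRD1 (chr10:90921266-90921292, minus strand): catttcttccTGATTCAcatattcagc
FST (chr5:53480459-53480485, plus strand): aaatgtcaccTGATTCAcactgaactt
DDR2 (chr1:162630852-162630878, plus strand): atgtctggccTGAGTCAccctcaggcc
PLAUR (chr19:43670339-43670365, minus strand): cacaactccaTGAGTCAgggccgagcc

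Of these, ARHGDIB, a GTPase regulator of blood cells, was at 0.538 FPKM in SKOV3 control and 101 FPKM in ES2 control. The strand in each line is that of the gene, and coordinates refer to GRCh38.p14. The remaining 4 genes are described with their pathways.

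Genes of the YAP pathway, counting the factors with their targets, split between the lines. Of 19 members, all past the filter, 4 were lower in SKOV3 control and 2 were higher, with a median log2 ratio of -0.26. ANKRD1, a YAP target of stretched cells, was at 2.2 and 9.05 FPKM in SKOV3, against 187 and 191 FPKM in ES2. CCN2, connective tissue growth factor, was at 13.4 and 14.2 FPKM in SKOV3, against 558 and 520 FPKM in ES2. CCN1 was at 44.3 and 59.3 FPKM in SKOV3, against 358 and 422 FPKM in ES2. For these 3 targets both SKOV3 libraries lay below both ES2 libraries. YAP1 itself was at 34.3 FPKM in SKOV3 control and 92.3 FPKM in ES2 control, while its paralog WWTR1 was at 27.3 FPKM in SKOV3 control and 5.91 FPKM in ES2 control.

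Targets and inhibitors of BMP signalling stood higher in SKOV3 control. Of 25 TGF-beta and BMP genes past the filter, 8 (32%) were higher and 1 was lower, with a median log2 ratio of 1.06. ID1, a BMP target that blocks differentiation factors, was at 449 and 261 FPKM in SKOV3, against 15.2 and 20.4 FPKM in ES2. SMAD7, the inhibitory SMAD, was at 13.9 and 18.0 FPKM in SKOV3, against 0.812 and 1.06 FPKM in ES2. ID2, ID4 and SMAD6 had log2 ratios of 2.82, 2.93 and 2.43. The activin binders were opposed. FSTL3 was at 75.2 and 77.9 FPKM in SKOV3, against 3.91 and 4.31 FPKM in ES2, while FST, follistatin, was at 0.0203 and 0.0878 FPKM in SKOV3, against 20.9 and 21 FPKM in ES2.

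Wnt genes also divided. Among 26 past the filter, 5 were higher and 4 lower in SKOV3 control. The 3 ligands past 4-fold were higher in SKOV3 control: WNT7B was at 29 FPKM in SKOV3 control and 0.0299 FPKM in ES2 control, WNT5A was at 9.69 FPKM in SKOV3 control and 0.0388 FPKM in ES2 control, and WNT7A was at 8.02 FPKM in SKOV3 control but 0 in ES2 control. The ligand WNT5B ran the other way without reaching 4-fold, at 0.0466 FPKM in SKOV3 control and 2.63 FPKM in ES2 control. The secreted inhibitors SFRP1 and DKK1 were lower in SKOV3 control. SFRP1 was at 7.94 and 5.53 FPKM in SKOV3, against 141 and 152 FPKM in ES2, and DKK1 was at 17.4 and 10.4 FPKM in SKOV3, against 119 and 139 FPKM in ES2. LEF1, a nuclear effector of the pathway, was at 0.0586 FPKM in SKOV3 control and 3.75 FPKM in ES2 control. Of 10 Notch genes past the filter, 2 (20%) were higher in SKOV3 control, the ligand JAG2 and the fringe enzyme LFNG, with log2 ratios of 3.54 and 2.83.

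Positional identity genes of the HOX clusters differed by cluster. Of 11 HOXB genes past the filter, 4 (36.4%) were higher in SKOV3 control, none was lower and the median log2 ratio was 1.65. HOXB6 was at 56.7 and 62.6 FPKM in SKOV3, against 11.2 and 10.4 FPKM in ES2. Of 6 HOXC genes, 2 were lower (HOXC4 and HOXC8) and the median was -1.69, or -1.96 with genes of count 0 at their bound. Of 11 HOXA genes 1 was lower, HOXA4, with a median of -0.89, and of 6 HOXD genes none reached 4-fold in either direction, with a median of -0.54. The HOXA genes lie in the 10 Mb window chr7:20000001-30000000, whose 49 genes, HOXA included, also had a median of -0.89. The HOXA lean was thus no larger than that of its window. Many HOX genes overlap on the same strand, 7 of the 11 in HOXB and 5 of the 6 in HOXC, so reads between neighbours are uncertain. Among 48 other developmental transcription factors past the filter, 8 (16.7%) were higher and 6 (12.5%) lower. TBX1 and MSX2 were at 7.83 and 6.07 FPKM in SKOV3 control but 0 in ES2 control. SOX9 was at 1.82 FPKM in SKOV3 control and 27.6 FPKM in ES2 control, FOXA2 was at 2.34 FPKM in SKOV3 control and 17.5 FPKM in ES2 control, and TBX18 was at 0 in SKOV3 control and 4.32 FPKM in ES2 control.

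The 9p21 tumour suppressor genes CDKN2A and CDKN2B had no counts in SKOV3. CDKN2A (chr9:21967752-21994873), which encodes the cell cycle inhibitors p16 and ARF, was at 0 in both SKOV3 libraries and at 74.9 and 79.7 FPKM in ES2, at least 6930-fold lower in SKOV3 control. Its neighbour CDKN2B was at 0 in both SKOV3 libraries and at 3.68 and 4.25 FPKM in ES2. MTAP, a methionine salvage enzyme on the other side of CDKN2A, was detected in all, at 4.38 and 4.77 FPKM in SKOV3, against 11.2 and 9.60 FPKM in ES2. CDKN2A and CDKN2B lie between MTAP and DMRTA1, which was at 0.0382 FPKM in SKOV3 control and 1.0 FPKM in ES2 control. Of 11 genes of the 9p21 list past the filter, 2 were lower and none higher, with a median log2 ratio of -0.95. That list does not hold TUSC1, a gene that lies within its span and was at least 4-fold higher, so its count of higher genes does not cover the whole stretch. TUSC1 and PLIN2, of the same arm, were chosen after their values were seen and went in opposite directions. PLIN2, a lipid droplet protein, was at 0.0218 FPKM in SKOV3 control and 5.49 FPKM in ES2 control, and TUSC1 was at 7.66 FPKM in SKOV3 control and 0.0100 FPKM in ES2 control.

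Of 18 cyclins, cyclin-dependent kinases, their inhibitors and RB genes past the filter, 3 were lower in SKOV3 control and none was higher. These were the inhibitors CDKN2A and CDKN2B and the cyclin CCND1. None of 24 G1/S genes and none of 24 G2/M genes reached 4-fold between the controls, with medians of -0.14 and -0.23. In the YY-15 pair the medians were -1.11 and -0.77. The summed FPKM of the G1/S list was 321 in SKOV3 YY-15 and 776 in SKOV3 control, and in ES2 it was 817 with YY-15 and 822 in the control. The proliferation marker MKI67 was at 41.3 FPKM in SKOV3 control and 39.1 FPKM in ES2 control.

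Genes of plasminogen activation and coagulation differed in both directions. Of 18 plasminogen and coagulation genes past the filter, 4 were higher in SKOV3 control and 6 were lower, with a median log2 ratio of -1.10. F3, tissue factor, was at 158 and 224 FPKM in SKOV3, against 4.03 and 3.79 FPKM in ES2. PLAT, tissue plasminogen activator, was at 7.03 and 21.5 FPKM in SKOV3, against 146 and 164 FPKM in ES2. Both genes start coagulation or clot lysis, and they were high in opposite lines. SERPINE2 was at 26.8 FPKM in SKOV3 control and 2.08 FPKM in ES2 control. SERPINB7, TFPI and PLAUR, the urokinase receptor, had log2 ratios of -3.89, -2.56 and -2.01. Urokinase itself, PLAU, was at 80.5 FPKM in SKOV3 control and 174 FPKM in ES2 control, under 4-fold.

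Of 19 matrix metalloproteinases and TIMPs past the filter, 5 were higher and 5 lower in SKOV3 control. MMP1, interstitial collagenase, was at 58.5 and 151 FPKM in SKOV3, against 4022 and 4584 FPKM in ES2. MMP13, another collagenase of the same gene cluster on chromosome 11, was at 66.5 and 147 FPKM in SKOV3, against 0.0731 and 0 FPKM in ES2. These collagenases were high in opposite lines. MMP14, a membrane-bound activator, was at 0.420 and 0.691 FPKM in SKOV3, against 52.7 and 56.7 FPKM in ES2. TIMP3, a matrix-bound inhibitor, was at 0.108 and 0.296 FPKM in SKOV3, against 79.8 and 82.1 FPKM in ES2. MMP15 and MMP7 were higher in SKOV3 control, with log2 ratios of 3.30 and 2.45.

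Collagen genes leaned to the SKOV3 side, with 7 of 19 past the filter higher, 3 lower and a median log2 ratio of 1.25. In all, 12 lay above 0 and 7 below. COL18A1, a basement membrane collagen, was at 141 and 154 FPKM in SKOV3, against 5.79 and 6.38 FPKM in ES2. COL4A1 and COL5A1 had log2 ratios of 2.84 and 2.86. COL13A1, COL6A1 and COL6A3 were lower, with log2 ratios of -3.70, -2.89 and -2.43. Of 23 integrins and laminins past the filter, 2 (8.7%) were higher and 2 (8.7%) lower. ITGB4, the hemidesmosome integrin, was at 25.1 and 27.9 FPKM in SKOV3, against 0.0671 and 0.159 FPKM in ES2, while LAMA4, a vascular laminin, was at 0.0918 and 0.155 FPKM in SKOV3, against 12.3 and 11.1 FPKM in ES2.

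Inflammatory mediators were more often on the SKOV3 side. Of 22 interleukins and inflammatory growth factors past the filter, 9 (40.9%) were higher in SKOV3 control and 1 was lower, with a median log2 ratio of 1.40. CSF1, the macrophage growth factor, was at 23.5 and 61.2 FPKM in SKOV3, against 1.27 and 1.51 FPKM in ES2. IL18 was at 9.69 and 22 FPKM in SKOV3 and 0 in both ES2 libraries, and TNF was at 4.50 and 9.45 FPKM in SKOV3 and 0 in both ES2 libraries. IL1B was the lower member, at 1.76 and 11.7 FPKM in SKOV3, against 26.2 and 29.7 FPKM in ES2. In all, 6 members lay below 0, and of these IL24, TSLP and CSF3 had log2 ratios of -1.85, -1.82 and -1.52. Among 11 chemokines past the filter, 3 were higher and 1 lower. CXCL1 was at 192 and 295 FPKM in SKOV3, against 23.2 and 21 FPKM in ES2, the reverse of its neighbour CXCL5 on chromosome 4, though CXCL1, CXCL2 and CXCL3 are near-identical. CXCL8 changed sides with the pair compared: it was at 35.4 and 243 FPKM in SKOV3, against 103 and 99.5 FPKM in ES2.

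Complement and antigen presentation genes showed the same lean. Of 10 complement genes past the filter, 4 were higher in SKOV3 control and none was lower, with a median log2 ratio of 0.95, or 1.43 with genes of count 0 at their bound. C3, the central component, was at 19.2 and 61.4 FPKM in SKOV3, against 0.0135 and 0.00489 FPKM in ES2, and its span and strand are partly shared with another measured gene, GPR108. CFB, its convertase partner, was at 9.29 and 28.9 FPKM in SKOV3, against 0.346 and 0.414 FPKM in ES2. Of 16 HLA and antigen presentation genes past the filter, 3 (18.8%) were higher and 1 (6.25%) lower. ERAP2, a peptide-trimming enzyme, was at 19 FPKM in SKOV3 control and 0.726 FPKM in ES2 control, and the lower gene was CD274, the checkpoint ligand PD-L1, at 1.05 and 3.51 FPKM in SKOV3, against 12 and 11.1 FPKM in ES2. Of 27 interferon-stimulated genes past the filter, 3 were higher (BST2, HERC5 and IFITM3) and 1 was lower (IFI44). These are 11.1% and 3.7% of the list, against 4.83% and 3.2% of all genes. BST2, the virus tether, was at 46.2 and 52.3 FPKM in SKOV3, against 0.341 and 0.442 FPKM in ES2, and IFI44 was at 1.85 and 1.67 FPKM in SKOV3, against 21.1 and 19.6 FPKM in ES2.

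**Figure D5:**
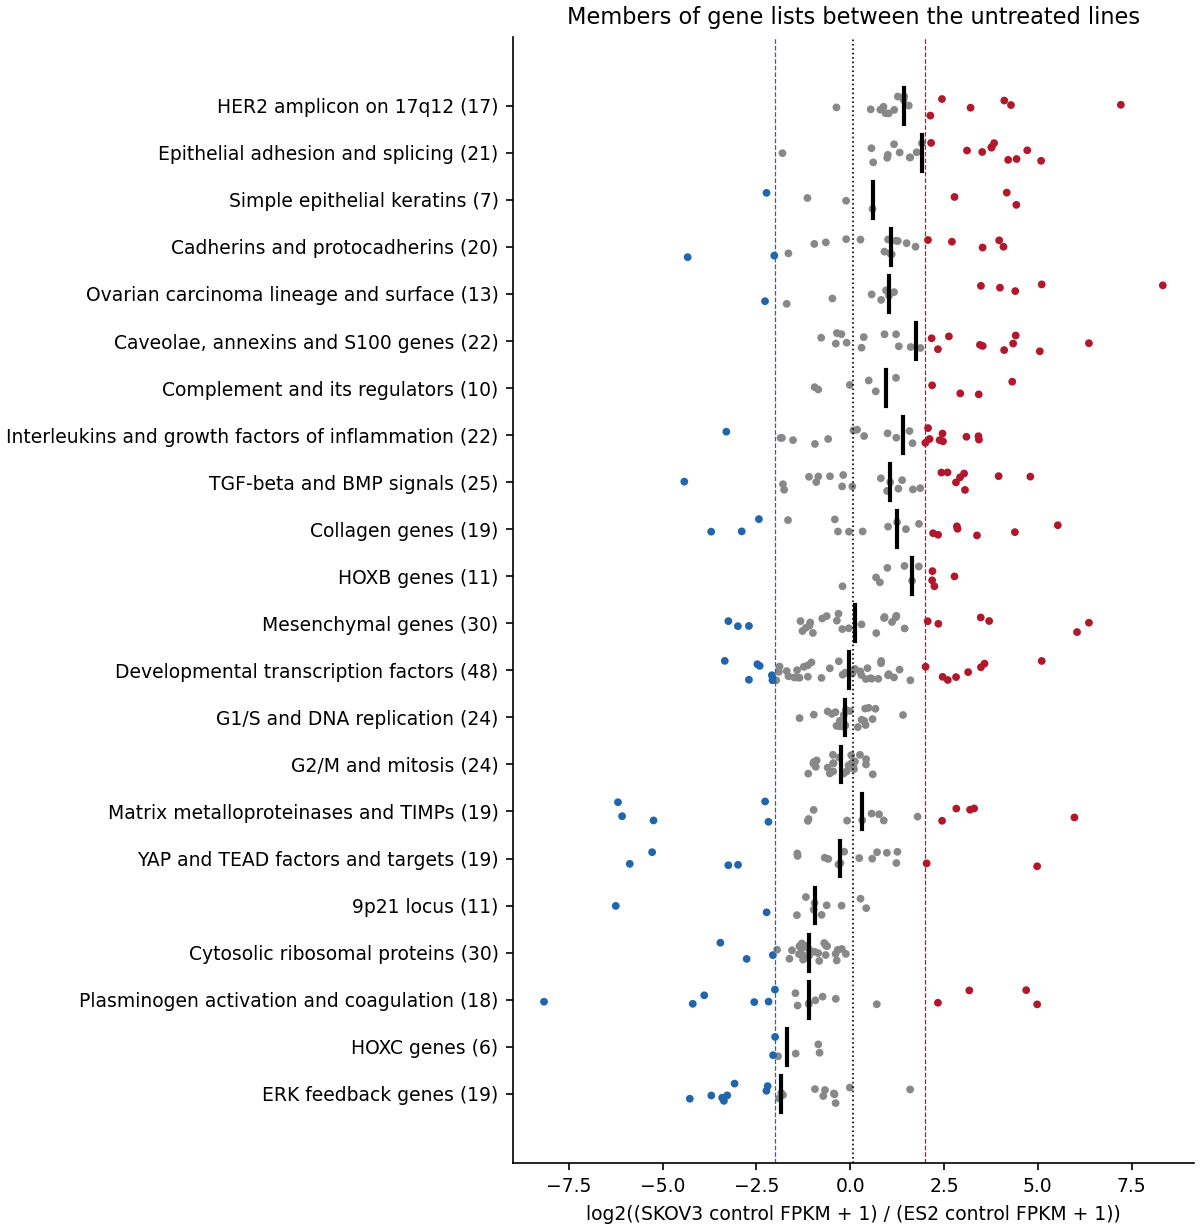
Each point is a member of a gene list (rows, with the number past the filter in brackets) at its log2 ratio of SKOV3 control over ES2 control on the x axis; black bars are list medians, the dotted line is the median of all genes, and dashed lines mark 4-fold. Epithelial adhesion, with a median of 1.91, lies to the right, ERK feedback, with a median of -1.84, lies to the left, and the G1/S and G2/M genes cluster near 0.

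Genes leaned together over the whole of chromosomes 7 and 19, which had the lowest and highest medians of the autosomes. The medians of the other autosomes lay between -0.27 and 0.36. On chromosome 7, the median log2 ratio was -0.62 over 672 genes and 21.4% lay above 0. On chromosome 19 it was 0.61 over 1026 genes and 77.3% lay above 0, against 53.3% of all genes. The YY-15 pair gave -0.52 and 0.53. Ratios and the GC content of transcripts were weakly correlated (Spearman's rank correlation 0.103 across 13105 genes, which share the same libraries), and with that trend removed the medians were -0.65 and 0.50. Of 279 windows of 10 Mb, 25 had a median of 0.75 or more in size, and all 25 had the same sign in the YY-15 pair. The highest was chr19:20000001-30000000, with a median of 1.45 over 51 genes, 14 of them at least 4-fold higher and none lower. All 25 zinc finger (ZNF) genes past the filter there lay above 0, with a median of 1.49, against 0.62 for 420 ZNF genes elsewhere. The same window's other 26 genes had a median of 1.19. The lowest was chr7:50000001-60000000, with a median of -1.24 over 14 genes, none of which reached 4-fold.

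A few neighbours that start close together on opposite strands differed together, but most such pairs did not. Of 859 pairs of genes on opposite strands whose starts lie within 1000 bases, both were past 4-fold in 5, and in all 5 both went the same way. In 48 pairs only 1 gene was past 4-fold. Over all genes past the filter, 8.02% were past 4-fold. Whether such pairs share a promoter was not tested. These genes were chosen after their values were seen. UQCRH, a subunit of respiratory complex III, was at 0.196 and 0.184 FPKM in SKOV3, against 91.8 and 103 FPKM in ES2, a log2 ratio of -6.28 [-9.49 to -8.15]. LRRC41, a ubiquitin ligase substrate adaptor that starts 82 bases away on the other strand, was at 1.19 and 0.314 FPKM in SKOV3, against 17 and 17.3 FPKM in ES2. UQCRHL, a near-identical copy of UQCRH elsewhere on chromosome 1, was at 0.0889 FPKM in SKOV3 control and 1.29 FPKM in ES2 control. The other pairs were PHGDH with ZNF697 and TACC3 with SLBP, lower in SKOV3 control, and LHX1 with LHX1-DT and APCDD1L with APCDD1L-DT, higher. The region between UQCRH and LRRC41 is shown in capitals within the RefSeq promoter of UQCRH (GRCh38.p14, chr1:46303448-46303747, plus strand).
UQCRH: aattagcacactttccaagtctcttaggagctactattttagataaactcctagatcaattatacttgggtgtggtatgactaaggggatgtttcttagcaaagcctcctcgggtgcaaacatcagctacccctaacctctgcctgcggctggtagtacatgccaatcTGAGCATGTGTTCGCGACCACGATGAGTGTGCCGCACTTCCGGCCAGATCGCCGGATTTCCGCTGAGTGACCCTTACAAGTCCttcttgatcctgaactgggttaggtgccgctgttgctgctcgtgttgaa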

How the data were processed

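RNA of SKOV3 and ES2 cells was sequenced in 4 libraries, 1 per group. Each library has FPKM values and estimated counts deposited by the authors in a table of the series, per the file headers. The submitters' processing notes list, without roles, edgeR and DESeq2, StringTie 2.1.6, HISAT2 2.2.1 and cutadapt 1.9. They name a mouse build, but the identifiers are human and 13104 of 13105 genes found in GENCODE 29 (GRCh38) overlap the same gene there. All 8 value columns were matched to samples through the line, control or dose that each heading names. Ratios used a pseudocount of 1 on FPKM, with Python 3.11.15, numpy 2.4.6, pandas 2.3.3, scipy 1.17.1 and matplotlib 3.10.9, and the code was tested on simulated counts. A count of 0 was taken to allow 3 counts in that library. Per the labels' protocols second strands were marked with dUTP, but strand use in counting and the number of cultures behind a library are not stated in the sources used here.

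Genes named are the 15 highest and 15 lowest ratios at an FPKM of 5 or more among protein-coding genes without same-strand overlap, the proposed markers ERBB2, CD24, SERPINB2 and CXCL5, up to 6 members per list with the largest ratios and up to 2 opposed ones. Other members of lists, and genes said to be so, were chosen after their values were seen. The 47 lists, the markers and the genes compared were chosen with earlier results of these data known. Of 1026 symbols in the lists, 30 were not analysed here, and some items are not reported here. Promoters are from RefSeq. Alternatives covered pseudocounts, filters, scaling, gene classes, sizes, windows and the YY-15 pair, and removal of the GC trend was added after seeing the data.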

Additional observations from a re-analysis of the deposited data

How the results depend on the processing

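The count of genes past 4-fold depends on the pseudocount, the unit with its filter, and the size called. Against 1084 genes (652 higher, 432 lower), a pseudocount of 0.1 gave 2487 (1507 higher, 980 lower) and a pseudocount of 5 gave 275 (148 higher, 127 lower). Rescaling to TPM gave 2497 of 18820 genes (1626, 871) and estimated counts scaled like CPM gave 2183 of 15760 (1374, 809), against 13512 genes in FPKM, so unit and genes kept changed together; a 2-fold size gave 3878 (2198, 1680) and an 8-fold size gave 380 (230, 150). The median of all genes was 0.21 in TPM, 0.11 in CPM and 0.13 in the YY-15 pair. Windows of 5 Mb gave 41 of 447 past 0.75 in size. The other alternatives (no filter, a filter at 5 FPKM, centring, protein-coding genes only, no same-strand overlaps, the YY-15 pair and the GC trend removed) gave between 847 and 1112 genes past 4-fold, more of them higher than lower in each. In the YY-15 pair, 31 of 773 named or listed genes no longer reached 4-fold and 32 newly did. Of 43 gene lists with 5 or more genes, the count past 4-fold moved by over 1.5 times in 30 with a pseudocount of 5, 12 with 0.1, 12 in TPM, 13 in CPM and 6 in the YY-15 pair. With a pseudocount of 5, 126 named or listed genes no longer reached 4-fold. No paired analysis was possible because the groups compared held 1 library each and shared fewer than 2 replicate numbers. A fit of line and treatment over all 4 libraries was not run, as its only residual is the difference between the lines in their response to YY-15. Depth limits genes with counts near 0, where only bounds or intervals are given, and leaving out a library would leave no comparison.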

Other observations

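Some metabolic genes differed between the lines. PHGDH, the first enzyme of serine synthesis, was at 1.45 and 4.86 FPKM in SKOV3, against 36.5 and 38.4 FPKM in ES2, a log2 ratio of -3.93. ASS1, argininosuccinate synthase, was at 12.9 and 28.4 FPKM in SKOV3 and 0 in both ES2 libraries. Of 21 genes of serine, glycine and nucleoside metabolism past the filter, 4 were higher in SKOV3 control and 2 were lower, and the median log2 ratio was -0.28, against 1.0 in the YY-15 pair. SLC16A3, the lactate exporter, was at 64.0 and 55.2 FPKM in SKOV3, against 1.32 and 1.19 FPKM in ES2. LDHA was at 740 FPKM in SKOV3 control and 167 FPKM in ES2 control. LDHB, the other main lactate dehydrogenase subunit, was at 90.6 FPKM in SKOV3 control and 324 FPKM in ES2 control and did not reach 4-fold. PFKM, a muscle phosphofructokinase, was at 1.55 FPKM in SKOV3 control and 21.1 FPKM in ES2 control. Of 22 glycolysis genes 2 were higher and 1 was lower, and of 18 cholesterol synthesis genes 2 were higher and 1 was lower, DHCR7, at 9.73 FPKM in SKOV3 control and 101 FPKM in ES2 control. Over all genes 4.83% were higher and 3.2% lower, against 9.09% and 4.55% of the glycolysis list and 11.1% and 5.56% of the cholesterol list, where 1 or 2 genes make the count. Among 31 genes of drug and aldehyde metabolism, 5 were higher and 2 lower. CYP24A1, which degrades vitamin D, was at 31.2 FPKM in SKOV3 control and 0.597 FPKM in ES2 control, and ALDH1A3, a retinal dehydrogenase, was at 5.91 FPKM in SKOV3 control and 97.6 FPKM in ES2 control.

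Genes of caveolae, annexins and S100 proteins were on the SKOV3 side, with 10 of 22 past the filter higher, none lower and a median log2 ratio of 1.74. ANXA3 was at 20.3 and 20.8 FPKM in SKOV3 and 0 in both ES2 libraries. S100A2 was at 62.4 FPKM in SKOV3 control and 0.911 FPKM in ES2 control. S100A4 was at 131 FPKM in SKOV3 control and 0.607 FPKM in ES2 control, and it overlaps S100A3 on the same strand. All 30 cytosolic ribosomal protein genes lay below 0, with a median log2 ratio of -1.10, and 3 were at least 4-fold lower. RPL22L1, a paralog of RPL22, was at 3.12 and 6.28 FPKM in SKOV3, against 44.3 and 43.9 FPKM in ES2, and ribosomal protein genes have many processed copies that share reads. Of 10 imprinted genes past the filter, 1 was lower, PEG10, at 5.66 and 0.496 FPKM in SKOV3, against 26.5 and 25.4 FPKM in ES2. Of 13 autosomal cancer-testis genes past the filter, 1 was lower, LY6K, at 0.0397 and 0.0667 FPKM in SKOV3, against 22.7 and 27.9 FPKM in ES2. PRAME was at 23.2 FPKM in SKOV3 control and 68.8 FPKM in ES2 control.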
